A study of Mus musculus with 6 samples.

Results

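The immunoglobulin light chain segments were 120 of the 54532 genes in the deposited expression table. They were taken as every row annotated as an immunoglobulin variable (V), joining (J) or constant (C) segment on chromosome 6, which carries the kappa locus, or on chromosome 16, which carries the lambda locus. The kappa locus gave 102 V, 5 J and 1 C segments, and the lambda locus gave 3 V, 5 J and 4 C segments. Transcripts were measured by RNA-seq in LSK cells, which carry Sca1 and c-Kit but no lineage antigens and make up the stem and progenitor fraction of bone marrow. The control group was 3 libraries from Myh9fl/fl;no cre mice (CTRL), and the Myh9-deficient group was 3 libraries from Myh9fl/fl;Mx1-cre mice (cKO). Both groups were C57BL/6 mice, carried the floxed Myh9 alleles and received poly I:C at 5 mg/kg, in 2 doses by the sample descriptions. Genotypes were read at 4 to 5 weeks of age, and 100000 LSK cells were sorted for a library 4 days after the first injection. Mx1-cre is switched on by interferon and acts in many tissues, so the deletion was not limited to LSK cells. How many mice gave each set of cells is not given in the sources used here, so all p-values measure the spread between these libraries.

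Light chains are the smaller chains of antibodies and of the B cell receptor. In a developing B cell, the RAG recombinase joins a V segment to a J segment of the kappa or the lambda locus, the joined exon is spliced to a C segment, and the part made by V and J forms the light chain's share of the antigen binding site. Most mouse B cells use kappa, and the choice of V segment differs from cell to cell. Plasma cells make light chain transcripts in very large amounts, while stem cells and early progenitors carry both loci unrearranged. Unrearranged segments can also be transcribed, and a level per segment does not separate such transcripts from those of a joined gene.

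The J segments are shown first, because they are the shortest members and because every light chain transcript of a joined gene carries the end of a J segment. Capitals mark the motif, TTCGG followed by any 4 bases and GG, the codons of the Phe-Gly-X-Gly turn that follows the antigen binding loop, searched on the coding strand only. All sequences are from GENCODE M21 transcripts (GRCm38), whose annotation gave the same gene coordinates as the deposited table for 120 of the 120 segments. The spans printed are those of the transcript, which is shorter than the gene for Igkj2 and Igkj5.
Igkj1 (chr6:70722562-70722599, + strand): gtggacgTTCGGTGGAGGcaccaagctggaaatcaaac
Igkj2 (chr6:70722916-70722954, + strand): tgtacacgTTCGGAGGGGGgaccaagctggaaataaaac
Igkj3 (chr6:70723223-70723260, + strand): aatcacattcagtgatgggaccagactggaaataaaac
Igkj4 (chr6:70723548-70723585, + strand): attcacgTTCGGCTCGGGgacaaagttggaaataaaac
Igkj5 (chr6:70723886-70723923, + strand): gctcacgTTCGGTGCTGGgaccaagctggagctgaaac
Iglj1 (chr16:19063225-19063262, - strand): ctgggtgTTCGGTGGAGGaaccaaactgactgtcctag
Iglj3p (chr16:19066371-19066408, - strand): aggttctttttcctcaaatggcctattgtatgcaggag
The motif was present in 8 of the 10 light chain J segments, and in 19 of 84 J transcripts of all immunoglobulin and T cell receptor loci (22.6%). Igkj3 and Iglj3p did not hold these letters.

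In a symbol such as Igkv1-122, the first number is the V family and the second the number of the segment, which increased with distance from Igkj1 in all 98 segments named this way. V segments are near copies of one another, which bears on every value of a single segment. The nearest other V segment of the same locus was a median of 94.2% identical over the transcript, and 48 of the 105 V segments were over 95% identical to another. The last 90 bases of 4 pairs are shown, since these pairs held segments that moved differently between the groups. Capitals mark the bases that differ within a pair, and the run ends at the 3′ end of the V segment, where joining takes place.
Igkv1-122 (chr6:68017399-68017488, + strand): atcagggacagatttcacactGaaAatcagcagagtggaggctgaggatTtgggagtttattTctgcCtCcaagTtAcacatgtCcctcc
Igkv1-117 (chr6:68121738-68121827, + strand): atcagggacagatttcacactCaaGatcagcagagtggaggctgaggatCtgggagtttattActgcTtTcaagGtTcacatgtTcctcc
Igkv6-17 (chr6:70371904-70371993, + strand): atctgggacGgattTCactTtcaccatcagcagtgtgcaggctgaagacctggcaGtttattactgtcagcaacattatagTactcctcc
Igkv6-25 (chr6:70215868-70215957, + strand): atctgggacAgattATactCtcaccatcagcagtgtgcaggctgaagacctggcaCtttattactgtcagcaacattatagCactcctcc
Igkv9-120 (chr6:68050367-68050456, + strand): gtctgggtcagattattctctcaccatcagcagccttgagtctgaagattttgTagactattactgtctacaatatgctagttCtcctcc
Igkv9-124 (chr6:67942074-67942163, - strand): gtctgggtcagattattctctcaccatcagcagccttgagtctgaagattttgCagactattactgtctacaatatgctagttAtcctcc
Iglv1 (chr16:19085017-19085106, - strand): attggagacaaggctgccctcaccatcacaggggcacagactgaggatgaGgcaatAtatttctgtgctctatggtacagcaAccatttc
Iglv2 (chr16:19260401-19260490, - strand): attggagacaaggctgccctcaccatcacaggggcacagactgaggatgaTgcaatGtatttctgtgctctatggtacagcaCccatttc
Within these 90 bases the pairs differed at 9, 6, 2 and 3 positions. Over whole transcripts, 56 of the 105 V segments shared no stretch of 100 bases with a transcript of another gene, and in 5 segments fewer than 50% of such stretches were their own. How reads that match several segments were counted is not given in the sources used here.

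Light chain transcripts were about doubled in Myh9-deficient LSKs, at both loci and in both V and C segments. Levels are FPKM, fragment counts scaled to gene length and to the size of the library, and summed levels add the FPKM of all segments of a kind. The summed kappa level was 931, 906 and 935 FPKM in the CTRL libraries and 2002, 1784 and 2015 FPKM in the cKO libraries (924 ± 15.9 and 1934 ± 130, mean ± SD, n = 3), a ratio of 2.09 ± 0.145. The summed lambda level was 90.2, 92.1 and 83.5 FPKM in CTRL and 222, 219 and 215 FPKM in cKO libraries (88.6 ± 4.50 and 219 ± 3.62), a ratio of 2.47 ± 0.132. At both loci, every cKO library lay above every CTRL library. No p is given for these sums, and with 3 libraries a group the smallest possible exact permutation p is 0.1. In bulk RNA, a change in the number of cells that carry a transcript and a change in the transcript per cell cannot be told apart.

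**Figure D1:**
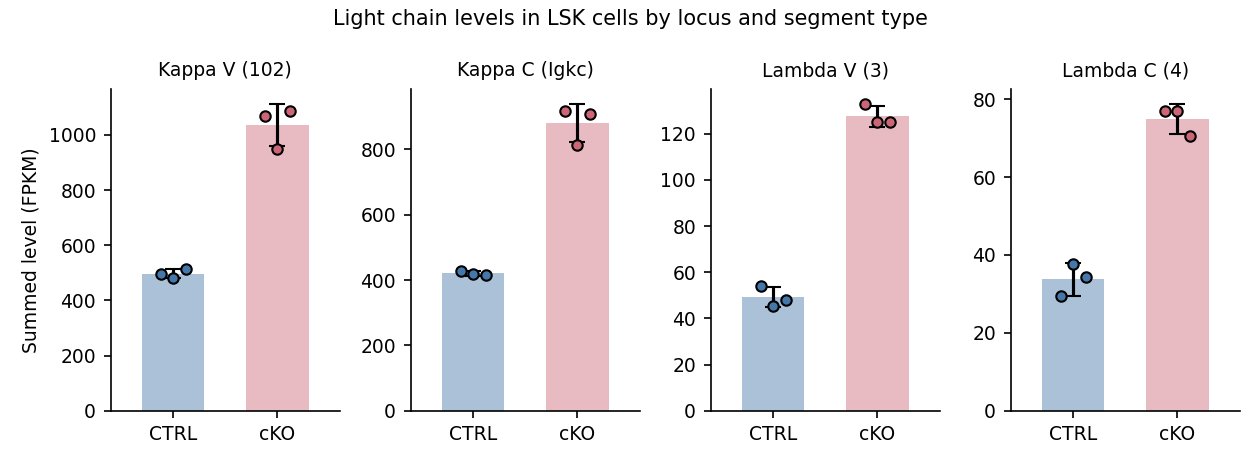
Summed levels (FPKM) of kappa V, kappa C, lambda V and lambda C segments in CTRL (CTRL) and Myh9-deficient (cKO) LSKs, with each vertical axis starting at 0. Points are libraries, bars are means and error bars are SD (n = 3). In all 4 panels the points of the groups do not overlap, for example 414 to 428 FPKM against 814 to 918 FPKM for Igkc.

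Igkc (ENSMUSG00000076609, chr6:70726435-70726966, + strand, mm10), the only kappa constant segment, held more reads than any other light chain segment. It had 428, 420 and 414 FPKM in CTRL and 918, 814 and 909 FPKM in cKO. These values rest on 3937 to 4525 reads in CTRL and 7894 to 9149 reads in cKO libraries. The groups were well apart, and the log2 fold change (log2FC, on the log2(FPKM + 1) scale) was 1.06 ± 0.0481 (SE, limma adjusted p = 2.07e-05). The kappa V segments together moved like Igkc. Kappa V reads per Igkc read were 0.800, 0.793 and 0.863 in CTRL and 0.812, 0.812 and 0.832 in cKO libraries, so this ratio overlapped between the groups.

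Of the 120 segments, 99 had a read in at least 1 library, and 81 averaged 1 FPKM or more and so entered the test. Of the 81 tested, 59 were higher in Myh9-deficient LSKs and 7 lower at an adjusted p under 0.05, and 15 did not pass. Over the whole table, 19.9% of 11552 genes tested were higher and 20.6% lower by the same rule. The median log2 fold change was 1.15 over the segments tested and -0.01 over all genes tested. A segment that is silent in 1 group can pass the filter only through the other group, so overlap was also counted over all 120 segments: 66 had all cKO libraries above every CTRL library, 9 had them below, and the rest overlapped or were at 0 throughout. Over the 24337 genes with a read, 17.1% lay above and 16.1% below in this sense. With a change above 2-fold and p under 0.05, the thresholds the study names, here applied to p before adjustment, 47 segments were higher and 7 lower, where 1.43% and 0.701% of all genes tested were.

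**Figure D2:**
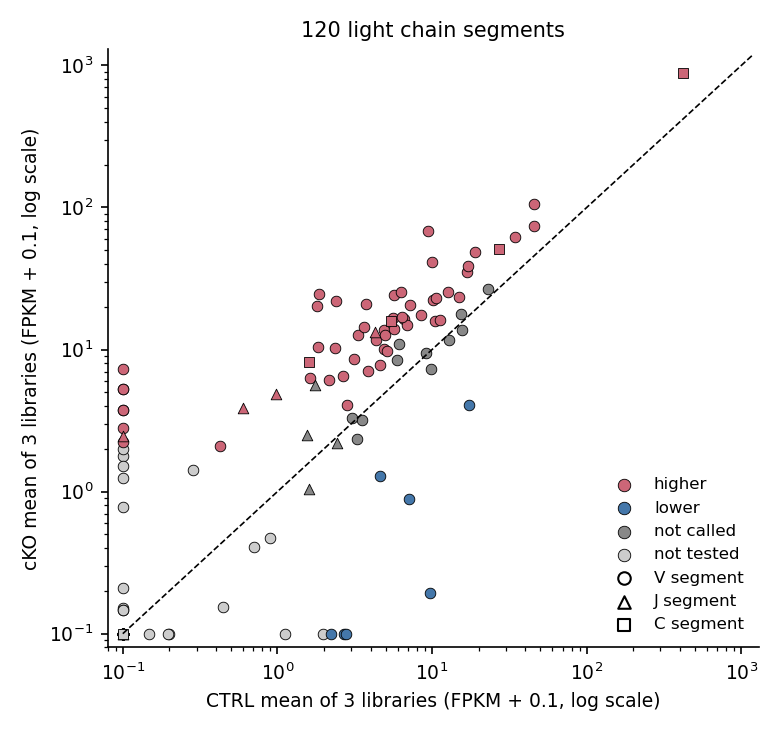
Mean level of each of the 120 light chain segments in CTRL (horizontal) and Myh9-deficient (vertical) LSKs, in FPKM with 0.1 added, on log axes. Colours give the limma call at an adjusted p under 0.05, shapes give V, J and C segments, and the dashed line marks equal levels. Most of the 81 tested segments lie above the line (59 higher), and the 7 lower segments lie well below it.

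At the lambda locus, the change was uneven between segments. Iglv1 (chr16:19085017-19085500, - strand), the main lambda V segment, had 51.6, 42.2 and 42.4 FPKM in CTRL and 110, 101 and 105 FPKM in cKO (log2FC 1.20 ± 0.0808, limma adjusted p = 9.54e-05). Iglv2, its near copy, had 2.61, 3.101 and 5.12 FPKM in CTRL and 20.7, 22.6 and 19.4 FPKM in cKO (log2FC 2.28 ± 0.187, limma adjusted p = 0.000218). Iglv1 thus made up 95.5%, 93.3% and 89.1% of lambda V reads in CTRL and 84.0%, 81.6% and 84.8% in cKO libraries. The groups did not overlap in this share. Iglv3 was not tested, with 0, 1 and 3 reads in CTRL and 12, 11 and 5 reads in cKO libraries.

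The lambda constant segments pair with J segments of the same number. Iglc1 rose from 24.3, 29.1 and 27.4 FPKM in CTRL to 56.2, 51.7 and 45.1 FPKM in cKO (log2FC 0.89 ± 0.0940, limma adjusted p = 0.000601). Iglc2 rose from 2.88, 7.14 and 5.87 FPKM to 13.5, 17.0 and 16.9 FPKM (log2FC 1.48 ± 0.265, limma adjusted p = 0.00532). Iglc3 rose from 2.23, 1.38 and 0.922 FPKM to 7.32, 8.37 and 8.44 FPKM (log2FC 1.88 ± 0.179, limma adjusted p = 0.000402). Iglc1 remained the most abundant of them in every library, with 77.4% to 82.6% of the summed lambda C level in CTRL and 64.0% to 72.9% in cKO libraries, without overlap. Iglc4 had no read in any library, which allows up to 3 reads in each. Kappa gave 91.7% to 92.1% of light chain reads in CTRL and 90.1% to 91.4% in cKO libraries, while Igkc over summed lambda C (11.2 to 14.6 against 10.6 to 12.9) overlapped between the groups.

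Among kappa V segments, the 15 with the most reads held 53.2% of all kappa V reads, and 13 of them rose while Igkv6-15 and Igkv6-23 were not called. Reads were added over all 6 libraries, of which the cKO libraries held more, so this ranking favours segments high in cKO. Of the 15 with the most CTRL reads, 11 of which were the same, 10 rose, 1 fell and 4 were not called. Igkv10-96, the most abundant in all CTRL libraries, had 43.8, 43.6 and 48.9 FPKM in CTRL and 79.0, 60.7 and 83.2 FPKM in cKO (log2FC 0.69, limma adjusted p = 0.00445). Igkv12-46 followed it with 36.0, 33.7 and 32.6 FPKM in CTRL and 69.5, 54.0 and 61.0 FPKM in cKO. Igkv1-117 stood lower than both in CTRL, at 8.96, 9.13 and 9.93 FPKM, and reached 72.7, 59.9 and 70.6 FPKM in cKO (log2FC 2.73 ± 0.0780, limma adjusted p = 3.8e-06). By reads, not scaled to length, it was the top V segment in 2 of the 3 cKO libraries, while by FPKM Igkv10-96 stayed above it in all 3. Igkv8-30, Igkv15-103, Igkv14-126, Igkv17-121, Igkv12-44 and Igkv8-24 rose by log2 fold changes between 0.61 and 1.33, while Igkv1-135, Igkv19-93 and Igkv14-111 rose by 1.88 to 1.98. Igkv1-110, with 17.2, 11.04 and 21.8 FPKM in CTRL and 46.9, 33.2 and 24.3 FPKM in cKO, was called with a log2 fold change of 1.02 (limma adjusted p = 0.0320). This call was lost when either of CTRL replicates 1 and 2 or of cKO replicates 1 and 2 was left out (adjusted p = 0.0717 to 0.0862). Igkv6-15 had 22.6, 23.4 and 23.0 FPKM in CTRL and 25.4, 24.7 and 29.7 FPKM in cKO, a log2 fold change of 0.20 with an adjusted p of 0.0585 (limma), and Igkv6-23 had a log2 fold change of 0.20 with an adjusted p of 0.392 (limma).

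Most of the largest rises were in V segments with few or no reads in control LSKs. Ranking by log2 fold change favours segments near 0 in CTRL, and those with no CTRL read passed the filter only through cKO. Igkv3-7 (chr6:70607437-70608036, + strand) had 1.54, 1.74 and 2.03 FPKM in CTRL and 25.3, 23.5 and 24.7 FPKM in cKO (log2FC 3.21 ± 0.0707, limma adjusted p = 2.23e-06). Igkv3-10 (chr6:70572633-70573230) went from 9 to 15 reads per CTRL library to 124 to 151 reads per cKO library (log2FC 2.99), and Igkv3-2 (chr6:70698449-70699067) from 14 to 18 reads to 113 to 193 reads (log2FC 2.77). These 3 segments lie close to the J cluster, at 115, 150 and 24.1 kb from Igkj1. Igkv9-124 (chr6:67942074-67942540, - strand) had no read in any CTRL library and 38, 53 and 50 reads in the cKO libraries. Against a floor of 3 reads per library, it was at least 15.97-fold higher. Its near copy Igkv9-120 had 48 to 69 reads in CTRL and 56 to 67 reads in cKO libraries, with overlap, and was not called (log2FC 0.06, limma adjusted p = 0.676).

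Falls were fewer and went against the doubling of the locus. Igkv1-122 (chr6:68016718-68017488, + strand) had 51, 88 and 66 reads in CTRL and 0, 0 and 2 reads in cKO libraries, 99.1-fold higher in CTRL (95% exact counting interval 27.1 to 824, counting error only). This ratio rests on the 2 reads of cKO replicate 3, and all cKO counts were under the floor of 3 reads. Its change was called (limma adjusted p = 0.000102), while Igkv1-117, from the same family, rose. Igkv6-17 had 15.2, 15.5 and 21.01 FPKM in CTRL and 4.39, 5.67 and 1.85 FPKM in cKO (log2FC -1.95 ± 0.307, limma adjusted p = 0.00319). Its near copy Igkv6-25 rose, from 69 to 96 reads in CTRL to 107 to 123 reads in cKO libraries (log2FC 0.49, limma adjusted p = 0.00615). Igkv4-53 had 6.44, 8.19 and 6.25 FPKM in CTRL and 0.873, 0.747 and 0.732 FPKM in cKO (log2FC -2.15, limma adjusted p = 2.4e-05). Igkv7-33 and Igkv4-63 had 9 to 32 and 6 to 31 reads in CTRL libraries and none in cKO libraries, at least 6.03-fold and 5.68-fold lower. Igkv6-20 and Igkv1-88 were the other falls that passed. Leaving out CTRL replicate 3, which was highest for Igkv7-33 and Igkv4-63, took these 2 and Igkv6-20 below the filter and the number of falls from 7 to 4.

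Some segments were read in every library of 1 group and in none of the other. Among kappa V segments, 12 had no read in any CTRL library and a read in every cKO library, and 5 showed the opposite. Over all 24337 genes with a read, 0.74% and 0.296% did so. The cKO libraries held about 2.05 times the kappa V reads of the CTRL libraries, and the part of depth in these counts was not tested. With at least 10 reads in every library of the other group, 8 segments were read in cKO alone (Igkv9-124, Igkv4-86, Igkv13-84, Igkv4-79, Igkv4-61, Igkv4-69, Igkv12-98 and Igkv5-37) and 2 in CTRL alone (Igkv6-20 and Igkv4-90), as were 0.0616% and 0.0205% of all genes with a read. By the floor of 3 reads, Igkv4-86 was at least 12.3-fold higher, Igkv13-84 11.3-fold, Igkv4-61 8.82-fold and Igkv4-79 8.24-fold. Near copies limit some of these rows. Igkv13-84 was 96.3% identical to Igkv13-85, which was read in every CTRL library, and 62.1% of its 100-base stretches were its own. Igkv6-20 was 98.7% identical to Igkv6-29, and 44.2% of such stretches were its own. Igkv4-79 was uneven between cKO libraries, with 39, 22 and 12 reads. A further 18 kappa V segments had no read in any library.

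**Figure D3:**
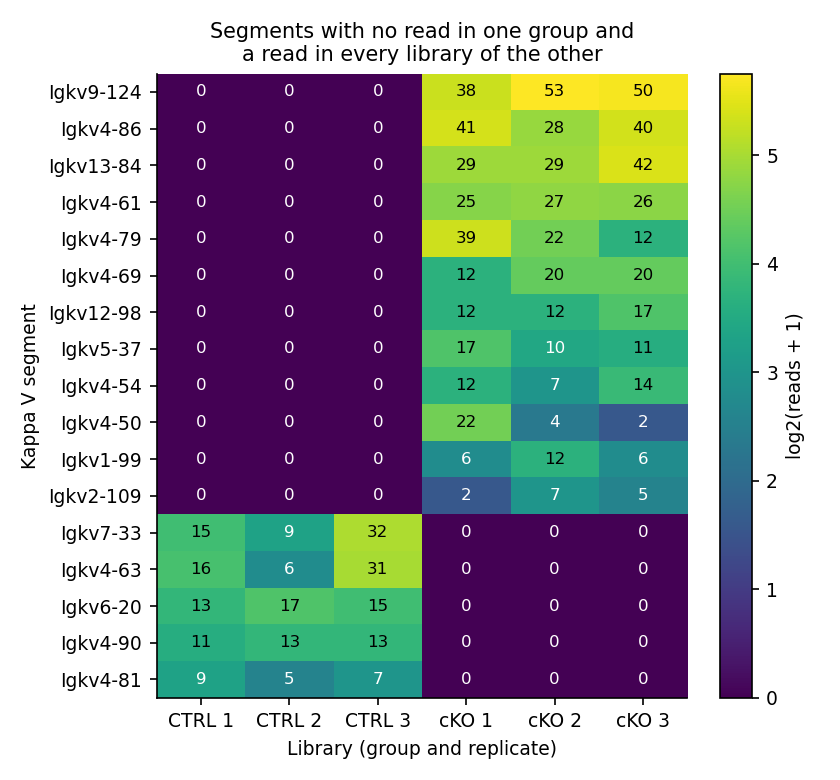
Recovered reads of the 17 kappa V segments with no read in 1 group and a read in every library of the other. Columns are libraries, numbers are reads and the colour scale is log2(reads + 1). The upper 12 segments were read in Myh9-deficient (cKO) libraries only, up to 53 reads for Igkv9-124, and the lower 5 in control (CTRL) libraries only, up to 32 reads for Igkv7-33.

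By V family, levels were higher in most of the locus, by amounts that differed between families. The symbols place 100 of the 102 kappa V segments in 20 families, and Gm42543 and Gm43218 carry no family name. When the FPKM of a family were summed before the fit, 15 of 17 families with reads were higher in Myh9-deficient LSKs, Igkv7 was lower and Igkv16 was not called, where 19.7% of all features in that fit were higher and 20.6% lower. Igkv3 rose most, from 24.3 ± 1.14 to 111 ± 6.49 FPKM (log2FC 2.15 ± 0.0527), and 7 of its 9 segments were tested and all 7 rose. Igkv19, a single segment, had a log2 fold change of 1.88, and Igkv1, Igkv5 and Igkv14 had 1.53, 1.50 and 1.42. Igkv4, the family with the most segments at 26, rose by 0.99 on the log2 scale, with 11 segments higher, 2 lower and 3 not called. Igkv6 rose least of those called, from 82.7 ± 3.06 to 94.9 ± 4.00 FPKM (log2FC 0.20 ± 0.0418), and held 3 segments higher, 2 lower and 3 not called. Segments called higher and segments called lower occurred together in 3 families, Igkv1, Igkv4 and Igkv6. Igkv16-104, alone in its family, had 69 to 105 reads in CTRL and 66 to 107 reads in cKO libraries.

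**Figure D4:**
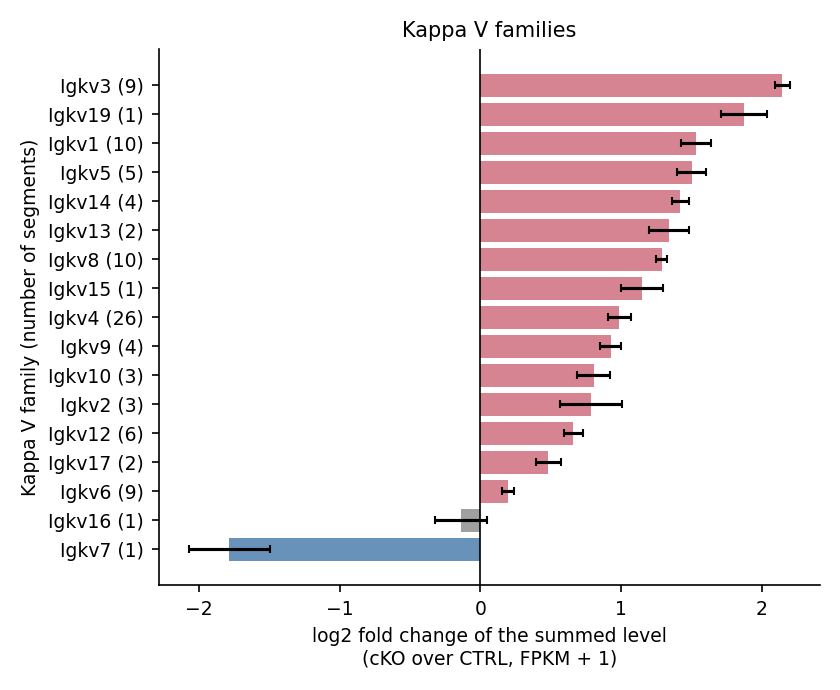
Log2 fold change (Myh9-deficient over control) of the summed FPKM of each kappa V family, on the log2(FPKM + 1) scale, with the number of segments in brackets. Bars are limma estimates, error bars are SE, and colour gives the call at an adjusted p under 0.05 (red higher, blue lower, grey not called). Igkv3 (2.15) and Igkv19 (1.88) lead, and Igkv7 (-1.78) is the only family that fell.

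Along the kappa locus, the summed level changed by nearly the same factor from the J cluster out to 3000 kb. In 500 kb windows of the distance between the start of a V segment and Igkj1, the ratio of Myh9-deficient to control was 2.02, 2.04, 1.98, 2.01, 1.98 and 2.23 out to 3000 kb. The last window, from 3000 to 3500 kb, had a ratio of 4.17 but held only Igkv2-137 and Igkv1-135, and nearly all of its level was Igkv1-135, which had 7.79, 10.8 and 11.1 FPKM in CTRL and 41.2, 38.6 and 43.8 FPKM in cKO. The groups did not overlap in the summed level of any of the 7 windows. The share of kappa V reads that a window held overlapped between the groups in the 5 windows nearest the J cluster. It was 13.3% to 14.3% in CTRL and 14.8% to 15.4% in cKO libraries from 2500 to 3000 kb, and 1.68% to 2.40% and 4.09% to 4.37% beyond. The falls were spread along the locus too, with at least 1 in every window out to 3000 kb except that from 2000 to 2500 kb. Segments on the + strand had a ratio of 2.36 and those on the - strand 1.92, with 19 and 30 segments higher and 2 and 5 lower. Windows and strands were not tested, since segments of 1 locus share their libraries and their sequence.

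**Figure D5:**
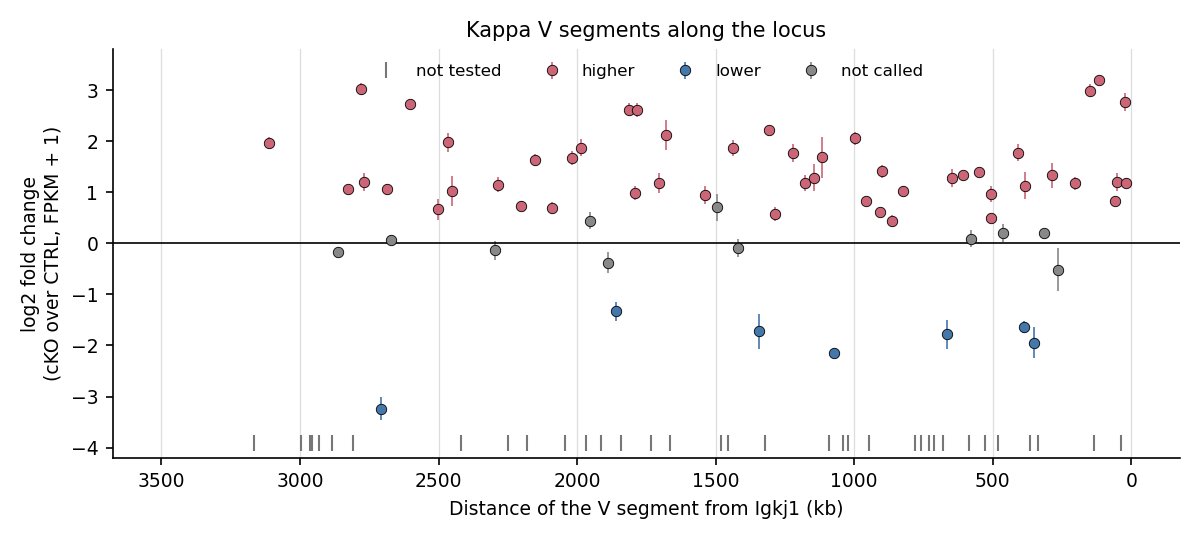
Log2 fold change (Myh9-deficient over control, log2(FPKM + 1) scale) of the 67 tested kappa V segments against their distance from Igkj1 in kb, with the J cluster on the right. Error bars are SE, colour gives the limma call at an adjusted p under 0.05, grey vertical lines mark 500 kb windows and ticks at the bottom mark V segments that were not tested. Rises up to 3.21 (Igkv3-7) and falls down to -3.24 (Igkv1-122) stand beside each other over most of the range.

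Reads were spread over many V segments in both groups. The most abundant segment held 8.64% to 9.24% of kappa V reads in CTRL and 6.88% to 7.43% in cKO libraries, with the lowest and highest exact 95% binomial bounds at 6.27% and 10.2% (counting error only). The 5 most abundant held 28.0% to 28.7% in CTRL and 28.8% to 30.0% in cKO libraries. The inverse Simpson number, the number of equally used segments that would give the same concentration, was 31.3 to 32.4 in CTRL and 31.7 to 33.8 in cKO libraries, with overlap. More segments were read in cKO libraries, 71 or 72 against 65 or 66. After each library was thinned to 3122 kappa V reads, 69.6 to 70.6 segments had a read in cKO and 64.8 to 66.0 in CTRL libraries.

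Which segments held the reads differed more between the groups than within them. Between libraries of 1 group, 7.77% to 11.7% of kappa V reads lay on different segments, and between libraries of different groups 26.1% to 28.6%. Over the 102 segments, Pearson correlations of log2(reads + 1) were 0.976 to 0.985 within and 0.740 to 0.777 between groups, as a description of segments that share libraries. Set against counting error alone, chi-square per degree of freedom between libraries of a group was 1.57 to 3.24 over V segments and 2.60 to 4.40 over all genes, which does not show whether they came from separate mice. Between groups it was 17.5 to 21.9 over V segments and 23.1 to 26.2 over all genes. Chi-square per degree of freedom grows with the reads per row, and V segments held fewer reads per row than genes at large. Its size over V segments therefore cannot be compared with its size over all genes.

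J segments carried very few reads. How reads that span V, J and C of a joined transcript were assigned to rows is not given in the sources used here. The J counts therefore do not give the number of joined transcripts. The 5 kappa J segments together had 8, 3 and 5 reads in CTRL and 11, 16 and 14 reads in cKO libraries, and the 5 lambda J segments 5, 6 and 1 reads in CTRL and 9, 12 and 14 reads in cKO libraries. At 38 to 43 bases of gene length, a read or 2 already gave 1 FPKM, so J segments passed the filter on counts at which V segments did not. Igkj1 had 0, 1 and 0 reads in CTRL and 3, 3 and 2 in cKO libraries, a ratio of 8.27 with a counting interval of 1.11 to 367 (called, limma adjusted p = 0.00863). Igkj4 had 2, 0 and 0 reads in CTRL and 4, 3 and 3 reads in cKO libraries, a ratio of 5.17 with a counting interval of 1.10 to 48.5, and was called with an adjusted p of 0.0221 (limma), which was 0.0508 to 0.0691 when either of CTRL replicates 2 and 3 or any cKO library was left out. Iglj1, with 1 to 5 reads in CTRL and 7 to 11 in cKO libraries, was called with an adjusted p of 0.0219 (limma), and with 0.0601 and 0.0679 without cKO replicates 2 and 3. Iglj3 was called on 0 reads in CTRL and 1 or 2 reads in each cKO library, all under the floor of 3 reads, so no fold is given. Its call was lost with voom on recovered reads (adjusted p = 0.0573). Without cKO replicate 2 or 3, Iglj3 fell under the filter and was not tested. Without the filter on low values, the calls of Igkj4 and Iglj1 were lost as well (limma adjusted p = 0.0652 and 0.0643). Igkj2, Igkj3, Igkj5 and Iglj3p were not called, and Iglj2 and Iglj4 had no read. Iglj2 lies inside the annotated span of Iglc2 (chr16:19198396-19200351). Without J segments, 55 of 73 segments tested were higher and 7 lower.

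The lists that follow are read against the 19.9% of all genes tested that were higher and the 20.6% that were lower, and genes not tested against the 17.1% and 16.1% of all genes with a read that lay above or below without overlap. Of 16 V(D)J recombination genes, 13 were tested, of which 3 rose, 2 fell and 8 were not called (median log2 fold change 0.02), shares near those over all genes. Rag1 and Rag2, the recombinase, had 0.0473 to 0.108 and 0.437 to 1.03 FPKM over the 6 libraries, overlapped between the groups and were not tested. Xrcc5, which encodes the Ku80 end-binding subunit, rose from 6.44, 6.71 and 6.38 FPKM to 12.5, 12.3 and 11.2 FPKM (log2FC 0.79, limma adjusted p = 7.77e-05). Paxx rose by 0.47 and Dntt, the template-independent polymerase of junctions, by 0.19 on the log2 scale, while Poll fell by 0.22 and Nhej1 fell by 0.24. The Nhej1 call was lost without CTRL replicates 1 or 3 or cKO replicates 2 or 3 (adjusted p = 0.0829 to 0.105), without the filter (0.0797) and with voom (0.208).

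Of 11 genes of the surrogate light chain and the pre-B receptor, 7 were tested, 1 rose and 3 fell. Igll1 and Vpreb1, the surrogate light chain itself, had 0.163 to 0.289 and 0.710 to 1.55 FPKM in CTRL and 0.203 to 0.397 and 1.24 to 1.96 FPKM in cKO, with overlap. Cd79a, a signaling chain of the B cell receptor, rose from 0.518, 0.818 and 0.894 FPKM to 1.69, 1.51 and 1.36 FPKM (log2FC 0.54, limma adjusted p = 0.00940). The kinases Lyn and Syk fell by 0.26 each, and Plcg2 fell by 0.15. Of 18 regulators of the light chain loci, 10 were tested, none rose and 5 fell. Of the 8 not tested, 4 were higher in cKO without overlap and 4 overlapped, all at low levels. Pou2af1, a coactivator of octamer-binding factors, had 0.434, 0.512 and 0.307 FPKM in CTRL and 1.49, 0.947 and 0.759 FPKM in cKO, and Ikzf3, Irf4 and Pax5 were the others. Irf8, a factor that binds light chain enhancers with PU.1, fell from 52.7, 51.5 and 52.1 FPKM to 15.4, 14.8 and 13.3 FPKM (log2FC -1.78 ± 0.0520, limma adjusted p = 3.85e-06). Spi1, which encodes PU.1, fell by 0.34, Pou2f2 fell by 0.33 and Ctcf fell by 0.17.

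The heavy chain locus gave a partly like and partly unlike picture. Of 8 heavy chain constant segments, 5 were tested, 4 rose and 1 fell. Igha, the IgA constant segment, rose from 130, 126 and 131 FPKM to 267, 255 and 267 FPKM (log2FC 1.02 ± 0.0285, limma adjusted p = 3.53e-06), close to the size of the change in Igkc, although the difference between them was not tested. Ighg2b, Ighg2c and Ighg1 rose by 1.92, 1.08 and 0.71. Ighm, the constant segment of IgM, fell from 99.4, 101 and 101 FPKM to 60.1, 58.2 and 58.8 FPKM (log2FC -0.75, limma adjusted p = 5.79e-06). Summed heavy chain V segments had a ratio of 1.97 ± 0.123.

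No called gene beside the loci changed by 2-fold. Within 1 Mb of the kappa locus, 1 gene outside the immunoglobulin annotation rose, 5 fell and 13 were not called, with log2 fold changes of those called between -0.46 (Gng12) and 0.48 (4930597O21Rik). Within 1 Mb of the lambda locus, 10 rose, 4 fell and 10 were not called, between -0.45 (Klhl24) and 0.71 (Gm25777). These counts stand beside 19.9% of all genes tested that were higher and 20.6% that were lower.

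Markers of the cell types that make light chains, and of other cells a sort could hold, are given as measured, and their part in the light chain change was not tested. Of 15 plasma cell genes, 9 were tested, 4 rose and 5 fell. Their summed level was 225 to 229 FPKM in CTRL and 242 to 246 FPKM in cKO libraries, and no gene of the list was at 0 in every library. Jchain alone rose by more FPKM than this sum, so the rest of the list together fell. Jchain, which links antibody units, rose from 30.3, 30.1 and 30.8 FPKM to 64.6, 60.1 and 67.3 FPKM (log2FC 1.05 ± 0.0437, limma adjusted p = 1.36e-05). Fkbp11, Mzb1 and Derl3, which serve protein folding and secretion, rose by 0.85, 0.84 and 0.54. Sdc1, the plasma cell surface marker CD138, fell by 0.41, and Xbp1, Tnfrsf13b and Txndc5 fell by 0.32, 0.31 and 0.16. Of the 6 plasma cell genes not tested, Pou2af1, Tnfrsf17, Eaf2, Irf4 and Slamf7 were higher in cKO without overlap, and Prdm1, a factor of the plasma cell state, overlapped. Irf4, another such factor, had 0.139 to 0.174 FPKM in CTRL and 0.263 to 0.336 FPKM in cKO.

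Of 14 B cell genes, 3 were tested and Cd72 (log2FC 0.58) and Cd79a rose. Of the 11 not tested, 4 were higher in cKO without overlap and 7 overlapped. The summed level was 34.6 to 40.0 FPKM in CTRL and 37.6 to 39.8 FPKM in cKO libraries, most of it Cd79b, which was not called. Pax5, a factor that B cells need, was at 0 in all CTRL libraries and had 1 to 6 reads in cKO libraries. Of 8 mature T cell genes, 2 were tested and both rose, and of the 6 not tested 5 were higher in cKO without overlap, with a summed level of 5.00 to 5.56 FPKM in CTRL and 14.5 to 16.6 FPKM in cKO libraries. Of 7 plasmacytoid dendritic cell genes, 4 were tested and 2 fell (summed level 277 to 287 FPKM against 250 to 258 FPKM). Among lineage antigens of the sort, Ptprc fell by 0.15 on the log2 scale, and the list summed to 10.6 to 11.3 FPKM in CTRL and 12.4 to 13.3 FPKM in cKO libraries. Of 10 LSK genes, 9 were tested. Flt3 and Hlf rose by 0.58 and 0.38, and Kit fell by 0.14, at 23.4 to 24.3 FPKM in CTRL and 21.2 to 21.8 FPKM in cKO libraries.

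Each library held 17571544 to 19894562 reads on genes, and correlations of log2(FPKM + 1) over all genes tested were 0.991 to 0.993 within and 0.974 to 0.977 between groups. Myh9 itself had 23.0, 22.6 and 22.0 FPKM in CTRL and 18.4, 20.0 and 17.7 FPKM in cKO (log2FC -0.26 ± 0.0487, limma adjusted p = 0.00642). It was lower in all libraries labelled Myh9-deficient, although the table gives 1 value for the gene and does not resolve the floxed exon.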

How the data were processed

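RNA-seq of sorted LSK cells gave 3 control and 3 Myh9-deficient libraries, grouped by their sample titles. The authors deposited FPKM per gene, with gene length and coordinates (mm10; HISAT2 2.0.5 per the submitters' processing notes). The counting program and its handling of reads with several matches are not given in the sources used here.

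In every library, 100% of values were whole multiples of 1 read (tolerance 0.01), which gave the reads behind each value. The 11552 genes that averaged 1 FPKM or more entered the test, as log2(FPKM + 1) with limma 3.58.1 (R 4.3.3; lmFit, eBayes with a trend, two-sided), with Benjamini-Hochberg adjustment over all of them. The test was checked on simulated data. Thinning was seeded, and the floor was 3 reads per library. Intervals from reads cover counting error only. V segments were aligned pairwise with biopython 1.88.

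The light chain segments and all gene lists were chosen with earlier results of these data known. Named genes followed a rule: Myh9, all C and J and lambda V segments, the 15 kappa V segments with the most reads, the 10 largest rises and 5 largest falls with an adjusted p under 0.05, and up to 4 genes per list and direction. Other genes named were chosen after their values were seen. Some genes of the lists are not reported here. The lists were V(D)J recombination, surrogate light chain and pre-B receptor, light chain locus regulators, heavy chain constant segments, and markers of LSK, lineage antigens, B, plasma, plasmacytoid dendritic and mature T cells. Alternatives were other pseudocounts, filters, scalings, voom on recovered reads, no trend, a replicate block, the study's thresholds, family sums and leaving out each library.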

Additional observations from a re-analysis of the deposited data

Results flagged for a closer look

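Kappa V pseudogenes, which were no part of the 120 segments, had 47 reads over the 3 Myh9-deficient libraries and 2 reads over the 3 control libraries, a signal in rows that the comparisons above did not use. The 74 pseudogenes together had 15, 20 and 12 reads in the Myh9-deficient and 0, 2 and 0 reads in the control libraries. Most of these reads were on Igkv4-77, with 14, 19 and 7 reads in Myh9-deficient and 0, 2 and 0 reads in control libraries. Near copies among V segments make a single row uncertain, and their part in these reads was not tested.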

How the results depend on the processing

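Of 82 named genes tested, 64 kept their direction and their side of the threshold under all alternatives that gave a value. Leaving out a library reversed Igkj3 (log2 fold change -0.28 without CTRL replicate 1 and -0.44 without cKO replicate 2, range -0.44 to 0.94) and Iglj3p (-0.38 without CTRL replicates 1 or 3, -0.18 and -0.19 without cKO replicates 1 and 3, range -0.38 to 0.45), neither of which was called. Segments higher numbered 52 to 60 and segments lower 4 to 9 when each library was left out in turn. With a mean of at least 5 FPKM, 1 segment was lower, since the other 6 fell under that filter. Summed by V family, 15 families were higher and 1 lower. The kappa ratio stayed between 2.05 and 2.17. The lambda ratio was 2.40 to 2.52 when a library was left out, and 2.63 without the most abundant V segment of each library. With the replicate number as a replicate block, 62 segments were higher and 7 lower. Same-numbered libraries did not deviate together, with correlations of their deviations of -0.026 to -0.0046. Whether same-numbered samples were littermates or handled together is not given in the sources used here. Among named genes, the block took calls from Ptprc, Creld2 and Sdc1 and gave calls to Igkj5 and Igkv6-23. Igkv6-15 was called with a mean of at least 5 FPKM (limma adjusted p = 0.0453) and without cKO replicate 2 (0.037). Igkj2 was called without CTRL replicate 1 (limma adjusted p = 0.00522). Igkj5 was also called with voom (adjusted p = 0.0473) and without CTRL replicate 3 (limma adjusted p = 0.00134). Leaving out a library also ended calls outside the light chain loci, namely Plcg2 (CTRL replicate 2, cKO replicates 1 and 3; adjusted p = 0.0581 to 0.0812), Rela (CTRL and cKO replicates except CTRL 3 and cKO 2; 0.0517 to 0.0691), Ptprc (any library; 0.0628 to 0.106), Creld2 (any but cKO replicate 2; 0.0525 to 0.122), Sdc1 (CTRL replicate 1; 0.0660), Irf7 (CTRL replicates 1 and 3, cKO replicates 1 and 2; 0.0822 to 0.0946) and Lck (any CTRL library and cKO replicate 3; 0.0717 to 0.0872), all by limma. Without the filter on low values, Igkj4, Iglj1, Igkv1-110, Nhej1, Plcg2, Ptprc, Creld2, Sdc1, Irf7 and Lck lost their calls (adjusted p = 0.0557 to 0.0889). Values of segments with few reads, above all J segments, carry a large counting error.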
